A study of Mus musculus with 14 samples.

Results

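The arrays carried probes for long intergenic noncoding RNA (lincRNA) regions, and the 550 regions longer than 50 kb are described here, out of 4607 such regions. A region is the chromosome, start, end and strand that the scanner files give for its probes, on the mouse build mm9, and a region was kept if its end minus its start was over 50000 bases. Values were found for 548 of the 550 long regions and for 4602 of all 4607. These 548 regions lay on 20 chromosomes, 267 on the forward and 281 on the reverse strand, and covered 373 separate intervals, 175 of them with probes to both strands. Their median length was 77.8 kb, 182 were over 100 kb and 52 over 200 kb. The longest by far, at 7130 kb (chr7:39351858-46480344, reverse strand), had 1 probe, which was too dim to test, and the next measured 538 kb. The length was read from the array's own names, so no measured value entered the choice.

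LincRNAs are transcribed from their own promoters, mostly by RNA polymerase II, and many are spliced and polyadenylated like messenger RNAs without coding for protein. The span of a lincRNA region covers introns as well as exons, so a long region does not mean a long mature RNA, and a few short probes read only small pieces of it. Some lincRNAs bind chromatin-modifying complexes such as Polycomb repressive complex 2, and in heart several are known to be restricted to cardiomyocytes or fibroblasts and to respond to infarction. A single long region can also hold several transcripts, or transcripts of both strands.

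RNA came from ventricles of male C57BL/6 mice that were 8 weeks old when operated, and no allele or transgene is named for any group. In the MI groups the left anterior descending coronary artery was tied off, which causes a myocardial infarction (MI), and border-zone tissue was taken after 3 days (5 arrays) or 14 days (5 arrays). The sham group (4 arrays) had the operation without ligation, and no time of harvest is given for it, so age after surgery and ligation cannot be told apart there. The design text speaks of 5 sham mice, and the labels number the arrays of a group without saying which animal each came from, so p-values measure the spread between these arrays. The protocols mention a poly-T purification step and also total RNA as the input for labelling, so it is not known which lincRNAs without a poly-A tail could be read. RNA from whole tissue mixes cell types, and fewer cells of a type and less RNA per cell cannot be told apart.

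Each array gave 1 Cy3 intensity per probe, which was set on a log2 scale minus the array's 75th percentile; a level of 0 is that percentile, and a change is the difference of 2 group means ± its standard error (SE) from limma. The 75th percentiles ran from 188.6 to 443 intensity units. Scanner output, with a flag for signal well above background, was used for 10 arrays (4 sham, 2 at 3 days, 4 at 14 days), on which 54.8% to 66.1% of all probes and 36.8% to 52.7% of the long regions' probes were above background. Tests were run on the 32261 of 55482 probes that all scanner arrays of 1 group or more put above background. Cardiomyocyte genes fell in 8 of 8 cases at 3 days (median change -1.23). Of 6 tested macrophage and neutrophil genes 5 rose and Itgam fell by 0.75 (median of the 6, 2.02). Of 6 fibroblast genes 5 rose and Dcn fell by 0.56 (median of the 6, 2.54), and 4 of 4 genes of dividing cells rose (median 4.36). The array means of these lists did not overlap between sham (8.43 to 8.62, 1.76 to 2.48, 4.41 to 4.66 and -3.62 to -1.88, in the same order) and MI 3 days (7.13 to 7.39, 3.68 to 4.52, 6.16 to 6.58 and 1.57 to 2.05). At 14 days the means were 7.88 to 8.51, 2.03 to 2.84, 6.23 to 6.86 and -2.69 to -1.0, and the liver genes Alb and Apoa1 had no tested probe. Of 3 neuronal genes only Snap25 was tested, and it fell by 0.77 ± 0.11 at 3 days (adjusted p = 4.79e-05) and read 0.07 ± 0.11 at 14 days. Atrial cardiomyocyte genes fell in 3 of 3 cases at both times (medians -4.58 and -3.43), while of 4 endothelial genes 1 rose and 1 fell at 3 days, and of 4 smooth muscle and pericyte genes 2 rose and 2 fell. The part of this change in cell makeup in the lincRNA results below was not tested.

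Of the 548 long regions, 407 had at least 1 tested probe, 349 of them on a probe above background on every scanner array, and 141 had none. A region carried 1 to 10 probes (median 4). In all 976 of 2386 probes were tested, so that 164 regions rest on 1 probe, 243 on several, and 95 had every probe tested. Each region is represented below by the tested probe with the highest mean level, and a region is said to have risen or fallen if that probe passed a Benjamini-Hochberg adjusted p of 0.05 in limma over all tested probes. Long regions are not all independent, since 63 pairs of them overlap on the same strand. At the edge of the rule, the shortest regions kept were chr19:29546348-29596479 (50131 bases, reverse), with a change of -0.65 ± 0.16 at 3 days, and chr9:56379670-56429822 (50152 bases, reverse), with -0.32. Just outside it were chr2:10237649-10287591 (49942 bases, forward), with -0.30 ± 0.21, and chr1:51753968-51803787 (49819 bases, reverse), with -0.21.

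The comparison of MI 3 days with sham asks which transcripts differ early after infarction. Long lincRNA regions were lower far more often than higher: 172 of 407 fell (42.3%) and 40 rose (9.83%), with a median change of -0.30 over all 407 and quartiles of -0.63 and 0.03. Among all 32261 tested probes 39.7% fell and 25.5% rose, with a median of -0.19, so the share of falling regions was close to that of the array at large while the share of rising ones was lower. Fitted changes of at least 2-fold were seen in 20 of the risen and 41 of the fallen regions, some on probes near background in one group. Changes ran from -2.62 to 2.76. The share of 2-fold changes among all tested probes was not computed, so these 2 counts cannot be set against the array at large. In 35 risen and 135 fallen regions no array of one group overlapped the other, against 56.8% of all tested probes in either direction. With the arrays scaled by quantiles 51 regions rose and 148 fell. Background correction by normexp with an offset of 50 was run on the 10 scanner arrays alone, with quantile scaling after it, and gave 41 and 98. Those arrays without the correction gave 38 and 147. All values given below after normexp correction likewise come from these 10 arrays, 2 of them at 3 days, with quantile scaling.

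The downward shift was visible on every array at 3 days. Each region's mean over the sham arrays was subtracted, and the median over the 407 regions was then -0.25, -0.18, -0.42, -0.37 and -0.32 on the 5 arrays at 3 days and -0.08, 0.04, 0.01 and 0.05 on the sham arrays. No array at 3 days reached the sham range. At 14 days the medians were -0.08, -0.14, -0.23, -0.09 and 0.06, so that 3 arrays lay below the sham range, 1 at its lower end and 1 just above it. The same medians over all tested probes ran from -0.23 to -0.15 at 3 days and from -0.13 to -0.02 at 14 days.

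**Figure D1:**
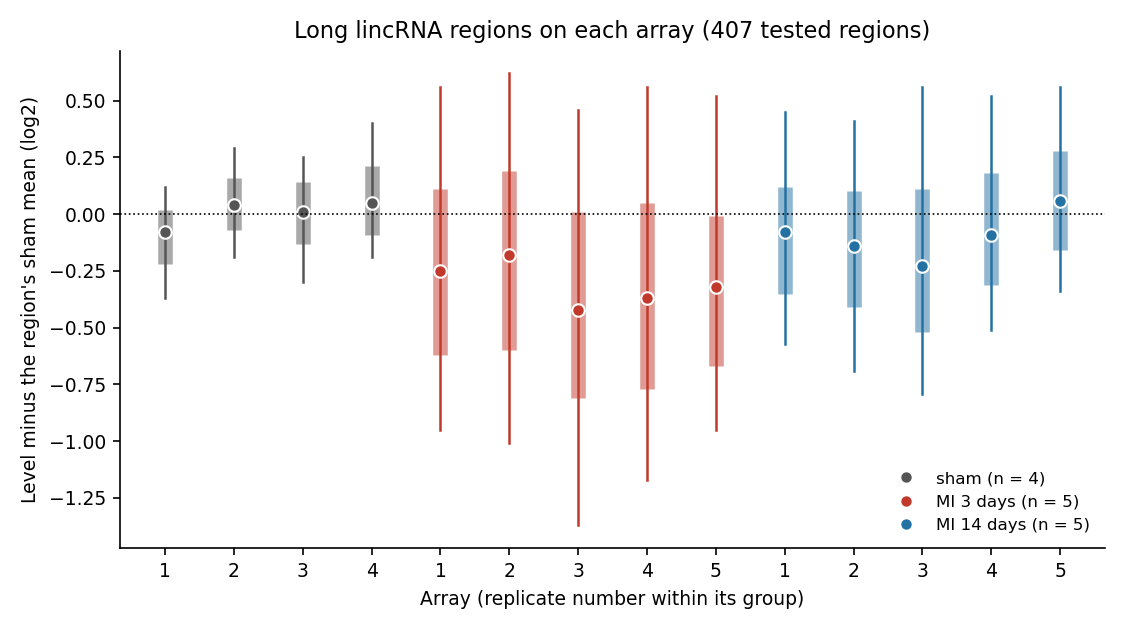
Level of the 407 tested long lincRNA regions on each array, as log2 level minus the region's mean over the 4 sham arrays (vertical axis), by replicate number within each group (horizontal axis); points are medians, boxes the quartiles and lines the 10th to 90th percentile of regions. The 5 medians at MI 3 days lie between -0.42 and -0.18, below every sham array, while those at MI 14 days run from -0.23 to 0.06.

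The leading regions of each comparison were taken among those past the threshold whose arrays did not overlap between its 2 groups. Their lack of overlap was thus fixed by the choice. In 4 of the 5 largest fitted increases at 3 days the probe was not above background on every sham scanner array, so their order of size cannot be read from these data. At chr2:117781720-117937595 (reverse strand, 156 kb), 1 of 2 probes was tested and read -6.76, -6.54, -6.14 and -6.47 in sham, -4.58, -4.42, -2.7, -2.72 and -4.15 at 3 days, and -6.28, -6.22, -5.92, -4.91 and -6.27 at 14 days. The arrays at 3 days all lay above all the others, and 2 of them stood well above the remaining 3. The probe was above background on none of 4 sham, 2 of 2 MI 3 days and none of 4 MI 14 days scanner arrays, so its rise is given as a bound, here at least 1.59-fold against sham (fitted change 2.76 ± 0.41, adjusted p = 4.37e-05) and at least 1.49-fold against 14 days (adjusted p = 0.000281). For such a bound, the dim group's mean is taken per array at the lowest signal well above background or at the probe's own signal, whichever is higher. Probes given with a bound entered the test only through a group in which they were bright. So did probes above background on only some scanner arrays of 1 of the groups compared. The adjusted p-values of both kinds are therefore no independent support for the change.

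The tested probe of chr10:98761521-98885681 (forward, 124 kb, 1 of 3 probes) read -6.72, -4.56, -4.49 and -6.53 in sham, -2.99, -2.74, -2.85, -2.92 and -3.41 at 3 days, and -3.14, -4.0, -3.77, -3.08 and -3.64 at 14 days. Every array after MI was above every sham array, and the sham arrays split into a pair near -4.5 and a pair below -6.5. It was above background on no sham scanner array, which makes the rise at least 2.63-fold at 3 days (adjusted p = 0.000103) and at least 1.8-fold at 14 days (adjusted p = 0.0026). At chr2:108456668-108532418 (forward, 75.8 kb, 1 of 7 probes tested), sham arrays read -2.8, -2.34, -1.97 and -2.32, arrays at 3 days -0.25, 0.03, -0.39, -0.2 and -0.15, and arrays at 14 days 0.09, -0.12, -0.15, -0.43 and -0.4. This region rose 4.49-fold at 3 days (change 2.17 ± 0.15, adjusted p = 5.2e-08) and held that level, with 2.16 ± 0.15 at 14 days and -0.01 ± 0.15 between the 2 times. Levels of both MI groups overlapped each other and were clear of sham.

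The only probe of chr6:134875724-134931975 (forward, 56.3 kb) read -4.05, -4.27, -4.41 and -4.01 in sham, -2.52, -1.87, -2.26, -1.88 and -1.94 at 3 days, and -3.5, -3.79, -2.26, -2.76 and -2.81 at 14 days. Sham was lowest throughout and 1 array at 14 days reached into the range of the 3-day arrays, with a fitted rise of 2.09 ± 0.26 at 3 days (adjusted p = 8.53e-06; above background on 3 of 4 sham scanner arrays) and 1.16 ± 0.26 at 14 days (adjusted p = 0.00421). At chr3:86827945-86886695 (reverse, 58.8 kb, 2 of 7 probes tested), levels were -5.15, -4.94, -3.62 and -3.73 in sham, -2.61, -1.6, -2.61, -2.47 and -2.51 at 3 days, and -3.97, -4.77, -3.58, -3.84 and -3.5 at 14 days. Both of its tested probes rose at 3 days, by 2.0 ± 0.35 (adjusted p = 0.000193) and 1.97, being above background on 2 and 1 of 4 sham scanner arrays, and the 14-day arrays lay within or just above the sham range (0.43 ± 0.35, adjusted p = 0.382). With normexp background correction the 5 increases kept their direction and their call at smaller sizes, of 0.55 at chr2:117781720-117937595, 0.42 on chromosome 10, 1.3 at chr2:108456668-108532418, 0.72 on chromosome 6 and 0.54 on chromosome 3. At 14 days it left 0.35 on chromosome 10 and 1.3 at chr2:108456668-108532418, and -0.49 at chr2:117781720-117937595 between the times.

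In the next 5 increases the representative probe was above background on every scanner array. At chr7:128341797-128414692 (reverse, 72.9 kb) all 5 probes were tested and all rose at 3 days, by 1.93 to 2.26. Its representative probe read 1.3, 1.43, 1.33 and 1.44 in sham, 3.2, 3.26, 3.64, 3.21 and 3.2 at 3 days, and 1.62, 1.81, 2.33, 1.87 and 1.66 at 14 days. The 3 groups did not overlap, with a rise of 3.81-fold at 3 days (1.93 ± 0.14, adjusted p = 5.37e-08), and the level at 14 days was 0.49 ± 0.14 above sham (adjusted p = 0.0157). All 3 probes of chr14:106562325-106660675 (forward, 98.3 kb) passed the test as higher at 3 days. The first rose by 1.75 ± 0.28, the second by a fitted 2.92 ± 0.26 with 1 of 4 sham scanner arrays above background, and the third, with none, by at least 4.5-fold. The latter 2 also passed it at 14 days, though the third was above background on no scanner array of sham or 14 days. The representative probe there read -3.66 to -2.38 in sham, -1.52 to -1.17 at 3 days and -3.54 to -2.05 at 14 days, so only the 3-day arrays were apart. Its rise came to 0.89 after normexp correction and to 2.73 as the mean of its tested probes. At chr3:58496493-58601253 (forward, 105 kb) and chr4:56480568-56658018 (reverse, 177 kb), each with 1 tested probe, the rise was 1.79 at 3 days and remained 1.52 and 1.54 at 14 days. The single probe of chr6:34548561-34612216 (forward, 63.7 kb) rose by 1.63 ± 0.14 at 3 days and by 0.73 ± 0.14 at 14 days.

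The largest fitted fall at 3 days was that of chr4:8983276-9173208 (forward, 190 kb, 1 of 3 probes tested). It read -3.39, -3.48, -3.46 and -2.75 in sham, -6.51, -5.49, -6.44, -6.36 and -4.64 at 3 days, and -3.63, -4.22, -4.02, -3.37 and -3.11 at 14 days. All arrays at 3 days were below all others (fitted change -2.62 ± 0.36, adjusted p = 2.14e-05), while the 14-day arrays overlapped sham (-0.40 ± 0.36, adjusted p = 0.429). The probe was above background on 4 of 4 sham, 1 of 2 MI 3 days and 3 of 4 MI 14 days scanner arrays. Part of the low signal is thus at background, and the size of the fall is not given as a fold. The probe entered the test only through sham, where it was high, so its adjusted p-value is no independent support.

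At chr2:176908707-176991202 (reverse, 82.5 kb), sham arrays read -2.38, -2.21, -2.0 and -2.34, arrays at 3 days -4.38, -3.98, -4.27, -4.46 and -4.35, and arrays at 14 days -2.64, -2.32, -2.92, -3.07 and -2.66. All 3 of its probes fell at 3 days; the representative one changed by -2.06 ± 0.15 (adjusted p = 5.1e-08) with 1 of 2 MI 3 days scanner arrays above background, and the others, with none, fell by at least 2.71-fold and 2.91-fold. Its 14-day arrays lay at or a little below the sham range (-0.49 ± 0.15, adjusted p = 0.0202). The region chr2:175543425-175603300 (forward, 59.9 kb, 3 of 5 probes tested, all lower) read -2.09, -2.11, -2.73 and -1.77 in sham, -4.0, -3.55, -4.59, -3.99 and -3.62 at 3 days, and -3.07, -2.78, -3.24, -2.72 and -2.75 at 14 days. The groups stepped from sham down to 3 days with 14 days between, at -1.78 ± 0.22 (adjusted p = 8.65e-06) and -0.74 ± 0.22 (adjusted p = 0.0205), and only 1 array of sham touched the 14-day range.

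Levels at chr3:85571525-85645700 (reverse, 74.2 kb, 1 of 3 probes tested) were -1.59, -2.21, -1.68 and -1.8 in sham, -2.8, -3.23, -5.0, -3.33 and -3.28 at 3 days, and -2.79, -2.84, -3.58, -2.48 and -2.74 at 14 days. Both MI groups were clear of sham and overlapped each other, with 1 array at 3 days far below the rest; the changes were -1.71 ± 0.36 (adjusted p = 0.00083) and -1.07 ± 0.36 (adjusted p = 0.0348). The call at 14 days was lost on leaving out sham replicate 1, 3 or 4 or MI 14 days replicate 1, 2 or 3, with changes of -0.99, -1.02, -1.06, -1.09, -1.08 and -0.89. It was also lost without the filter on dim probes (-1.07) and with the percentile of tested probes (-0.98), and normexp correction gave -0.49. Sham arrays read -3.95, -2.97, -2.65 and -2.23 at chr4:82979473-83035023 (reverse, 55.5 kb, 1 of 5 probes tested), arrays at 3 days -5.11, -4.5, -5.14, -6.11 and -4.02, and arrays at 14 days -4.56, -4.5, -3.04, -2.93 and -2.86. The spread within sham was nearly as wide as within MI, and the fall of -2.03 ± 0.49 (adjusted p = 0.00233; above background on 1 of 2 MI 3 days scanner arrays) came to -0.37 and missed the threshold after normexp correction. The probe of chr4:82979473-83035023 too entered the test only through sham, where it was high. The other 4 falls kept their calls after normexp correction. They came to -0.38 for chr4:8983276-9173208, -0.64 and -0.52 for the regions of chromosome 2 and -0.54 for chr3:85571525-85645700.

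**Figure D2:**
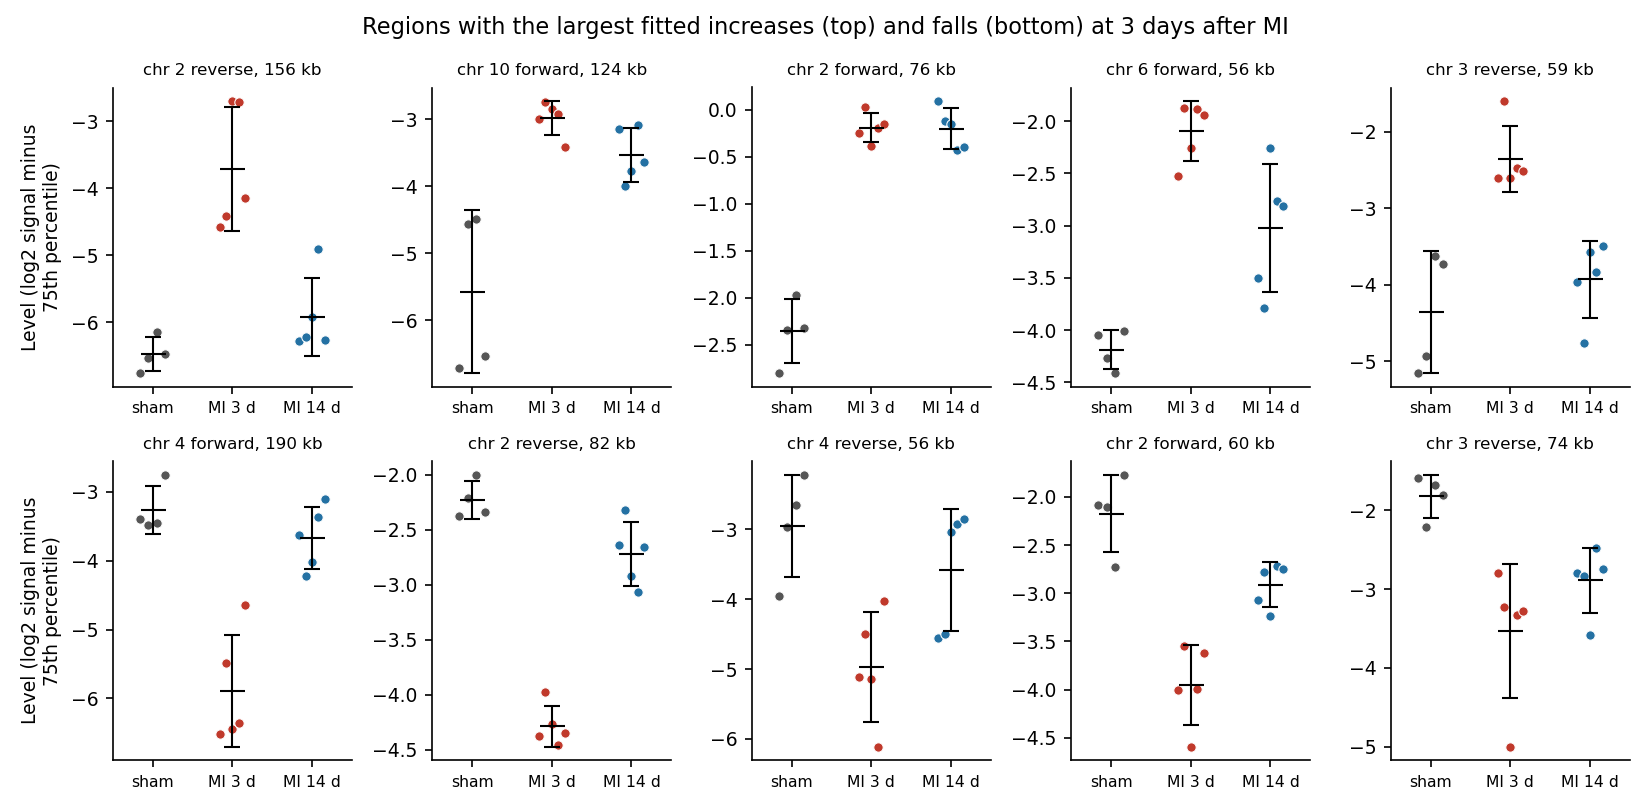
Levels on every array (points; log2 signal, 75th percentile of each array subtracted, a separate vertical scale in each panel) of the 5 long regions with the largest fitted increases (top) and the 5 with the largest fitted falls (bottom) at 3 days, in sham (n = 4), MI 3 days (n = 5) and MI 14 days (n = 5); lines are mean ± SD. The regions were taken among those past the threshold with no overlap of 3-day and sham arrays, so that feature was fixed by the choice. In 9 of the 10 panels the 3-day level is the farthest from sham, while chr2:108456668-108532418 (forward, 76 kb) reads alike at both times.

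Among the next falls, whole sets of probes moved together. All 3 probes fell at 3 days at chr3:127037711-127111912 (reverse, 74.2 kb; -1.55 to -1.76), at chr6:31170350-31287353 (forward, 117 kb; -1.44 to -1.69) and at chr10:74325583-74396665 (reverse, 71.1 kb; -1.53 to -1.62). The representative probe on chromosome 6 read 4.65, 4.52, 4.73 and 4.59 in sham, 3.15, 2.98, 2.79, 3.03 and 3.18 at 3 days, and 4.03, 3.97, 3.49, 3.96 and 4.04 at 14 days. The 3 groups were fully apart, with -1.60 ± 0.12 at 3 days (adjusted p = 7.83e-08) and -0.72 ± 0.12 at 14 days (adjusted p = 0.000663), the latter -0.44 after normexp correction. At chr7:134779841-134840591 (forward, 60.8 kb) 3 of 4 tested probes fell, the representative one by 1.5, and the fourth differed by 0.12; the representative change was -0.87 after normexp correction and -0.67 as the mean of tested probes. At chr3:37543523-37613073 (reverse, 69.5 kb) both tested probes fell, by 1.42 and 0.93.

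The far end of chromosome 2 held a run of long regions that all fell at 3 days; this window, from 174.5 to 177.8 Mb, was chosen after its values were seen and gets no test of its own. All 12 tested long regions in it were lower at 3 days, by -0.81 to -2.06 with a median of -1.22, and so were all 23 of their tested probes. Their median on each array ran from -1.26 to -0.97 at 3 days, from -0.07 to 0.23 in sham and from -0.60 to -0.16 at 14 days, so that no MI array lay within the sham range. At 14 days 5 of the 12 were still lower (median -0.46), and 11 of 12 were higher at 14 than at 3 days (median 0.83). Elsewhere on chromosome 2, of 15 tested long regions 3 rose and 6 fell (median -0.13). Shorter lincRNA regions in the window moved alike, with 24 of 29 lower, 1 higher and a median of -1.01. The window holds 4 overlapping pairs of long regions, and probe sequences were not used here, so whether neighbouring probes share sequence was not tested.

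No other chromosome had so large a share of falling regions: it was 66.7% on chromosome 2 (27 tested) and lowest, at 16.7%, on chromosome 18 (12 tested). Strands were alike, with 17 risen and 83 fallen of 204 forward regions and 23 risen and 89 fallen of 203 reverse regions. Signal that appeared or vanished outright was rare. The representative probe was above background on both scanner arrays at 3 days and on none of 4 sham arrays in 6 regions, 3 of which passed the test, and the opposite was seen in 0 regions. These 2 counts cannot be compared, since a probe could be tested through 2 scanner arrays at 3 days but needed 4 in sham. The lowest signal well above background also differed, at -5.37 on MI 3 days replicate 5 and -4.17 on replicate 4.

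The comparison of MI 14 days with sham asks what remains late after infarction. Of 407 long regions 34 were higher (8.35%) and 44 lower (10.8%), with a median of -0.12, where 12.8% of all tested probes were higher and 19.8% lower with a median of -0.09. At least 2-fold changes were left in 12 higher regions and 1 lower region. Their share among all tested probes was not computed, so this balance cannot be called a trait of long regions. No array overlapped in 31 higher and 35 lower regions, against 27.4% of all tested probes in either direction. The balance depended on the scaling: with each array's 75th percentile taken over the tested probes only, 42 regions were higher and 25 lower, and after normexp correction 30 and 28. Without the filter on dim probes 27 were higher and 28 lower. On the scanner arrays alone 31 were higher and 34 lower, and a slide block on them gave 24 and 15. The count of lower regions also fell to 29 on leaving out sham replicate 2, and likewise without sham replicate 3.

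Regions that stood highest at 14 days included some that had risen by 3 days and one that had not. The region chr12:5303823-5379098 (reverse, 75.3 kb) read -2.4, -1.83, -2.33 and -2.1 in sham, -1.19, -0.84, -0.93, -1.14 and -0.93 at 3 days, and -0.36, -0.13, 0.49, -0.02 and -0.55 at 14 days. It climbed in 2 steps without overlap, by 1.16 ± 0.18 at 3 days (adjusted p = 7.73e-05) and 2.05 ± 0.18 at 14 days (adjusted p = 8.58e-06), and the step between was 0.89 (adjusted p = 0.000632). Of its 4 tested probes 3 rose at both times, by 0.97 to 1.66 and then 2.05 to 2.90, and the fourth, above background on no sham scanner array, did not pass the test. The change at 14 days was 1.25 after normexp correction.

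At chr4:124127144-124334840 (reverse, 208 kb, 3 of 5 probes tested), sham arrays read -3.74, -3.67, -4.63 and -3.42, arrays at 3 days -3.94, -3.45, -4.64, -3.66 and -3.43, and arrays at 14 days -2.81, -2.42, -1.82, -2.11 and -2.63. Sham and 3 days covered the same range and 14 days lay above both, a rise of 1.51 ± 0.29 (adjusted p = 0.00179) after a difference at 3 days of 0.04 ± 0.29 (adjusted p = 0.909). The increase from 3 to 14 days, 1.47 ± 0.28 (adjusted p = 0.000488), missed the threshold with slide fitted as a block on scanner arrays (0.86) and after normexp correction (0.37), and the change against sham was 0.58 after that correction. Its tested probes changed by 1.51, 1.47 and 0.98 at 14 days. The region chr18:63455560-63548085 (reverse, 92.5 kb, 2 of 5 probes tested) read -4.69, -5.67, -5.09 and -4.48 in sham, -4.18, -3.52, -4.79, -3.67 and -3.23 at 3 days, and -2.75, -3.04, -2.82, -3.15 and -4.0 at 14 days. Its 14-day arrays were clear of sham and 1 array at 3 days lay inside the sham range; above background on no sham scanner array, it was at least 2.34-fold higher at 14 days (adjusted p = 0.00129) and at least 1.41-fold at 3 days (adjusted p = 0.0105). After normexp correction its change at 14 days was 0.37.

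Falls at 14 days were smaller than the increases. After chr3:85571525-85645700, described above, came chr19:55715078-55776694 (reverse, 61.6 kb), which read -0.67, -0.3, -0.34 and -0.48 in sham, -1.98, -1.3, -1.94, -1.85 and -2.03 at 3 days, and -0.82, -1.14, -1.85, -1.19 and -1.69 at 14 days. All MI arrays lay below sham, by -1.37 ± 0.20 at 3 days and -0.89 ± 0.20 at 14 days (adjusted p = 0.00469), the latter missing the threshold with slide fitted as a block on scanner arrays (-0.77). The 351 kb region chr2:177467500-177818050 (forward), read by 1 probe, stood at -0.14, -0.03, 0.12 and 0.38 in sham, -0.77, -1.06, -0.95, -0.9 and -0.76 at 3 days, and -0.78, -0.65, -1.1, -0.35 and -0.63 at 14 days. Both MI groups overlapped each other below sham, with -0.97 ± 0.14 (adjusted p = 3.55e-05) and -0.78 ± 0.14 (adjusted p = 0.00112). At chr9:30529709-30589042 (reverse, 59.3 kb) all 3 probes were lower at both times, the representative one by -1.35 ± 0.12 and -0.64 ± 0.12.

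Set directly against each other, the 2 times showed mostly higher levels at 14 days: 126 of 407 regions were higher (31.0%) and 35 lower (8.6%) at 14 than at 3 days, with a median of 0.22. Over all tested probes 32.7% were higher and 22.9% lower, with a median of 0.13, and after normexp correction 50 long regions were higher and 25 lower. Arrays did not overlap in 74 higher and 21 lower regions, against 40.0% of all tested probes in either direction. A block for the slide, on scanner arrays, gave counts of 63 and 13, where those arrays without the block gave 91 and 22. These values share the 3-day arrays with the early comparison, as both MI comparisons share the sham arrays, so the changes of a region are given side by side and no relation between them was computed.

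Changes of opposite sign at the 2 times, both past the threshold, were measured at 1 of the leading regions. The representative probe of chr11:53596919-53672731 (reverse, 75.8 kb) read -0.98, -0.58, -0.57 and -0.88 in sham, -1.62, -2.04, -1.61, -1.92 and -1.82 at 3 days, and -0.28, -0.09, -0.4, -0.42 and -0.49 at 14 days. Without overlap of any groups it was -1.05 ± 0.12 at 3 days (adjusted p = 5.13e-06), 0.42 ± 0.12 at 14 days (adjusted p = 0.0198) and 1.47 ± 0.12 between them (adjusted p = 3.21e-07), the last 0.96 after normexp correction. All 3 of its probes fell at 3 days (-0.97 to -2.05, the last above background on 1 of 2 MI 3 days scanner arrays) and were higher at 14 than at 3 days (1.10 to 2.13), whereas only the representative one was above sham at 14 days.

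At chrX:47893703-47996700 (reverse, 103 kb), sham arrays read 0.12, 0.01, -0.1 and -0.11, arrays at 3 days -1.01, -1.2, -1.49, -0.95 and -1.21, and arrays at 14 days 0.09, 0.1, -0.13, 0.28 and 0.19. All 4 tested probes fell at 3 days (-1.07 to -1.43) and were higher at 14 than at 3 days (1.05 to 1.61, the representative one 1.28 ± 0.11, and 0.82 after normexp correction). At 14 days 2 arrays lay above, 1 just below and 2 within the sham range (0.13 ± 0.12, adjusted p = 0.419). The region chr17:6426800-6528950 (forward, 102 kb) changed by -1.29 ± 0.22 at 3 days and 0.17 ± 0.22 at 14 days on its representative probe, whereas its second probe changed by -0.11 at 3 days. In the other direction, chr17:8718223-8949898 (forward, 232 kb) read 0.05, 0.44, 0.16 and 0.03 in sham, 1.97, 1.16, 1.73, 1.24 and 0.89 at 3 days, and 0.33, 0.28, -0.07, 0.39 and 0.8 at 14 days. It rose by 1.23 ± 0.21 at 3 days (adjusted p = 0.000163) and was -1.05 ± 0.20 at 14 against 3 days (adjusted p = 0.000525), which came to -0.64 and missed the threshold with slide fitted as a block on scanner arrays. All 5 probes of chr7:128341797-128414692 were lower at 14 than at 3 days (-1.36 to -1.76).

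These shares were similar in shorter lincRNA regions. The 3 classes of region, up to 10 kb (1411 tested), 10 to 50 kb (1302) and over 50 kb (407), had 43.9%, 44.9% and 42.3% lower and 10.6%, 9.98% and 9.83% higher at 3 days. At 14 days 7.09%, 5.76% and 8.35% were higher and 11.8%, 13.7% and 10.8% lower. From 3 to 14 days 35.6%, 36.3% and 31.0% were higher. More long regions had a tested probe (74.3%, against 64.0% and 70.3%), while the share of probes tested was alike, at 40.9%, 40.8% and 41.9%. Of 127 tested regions over 100 kb, 8.66% rose and 41.7% fell at 3 days. No test of these differences was made, because regions are not replicates.

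**Figure D3:**
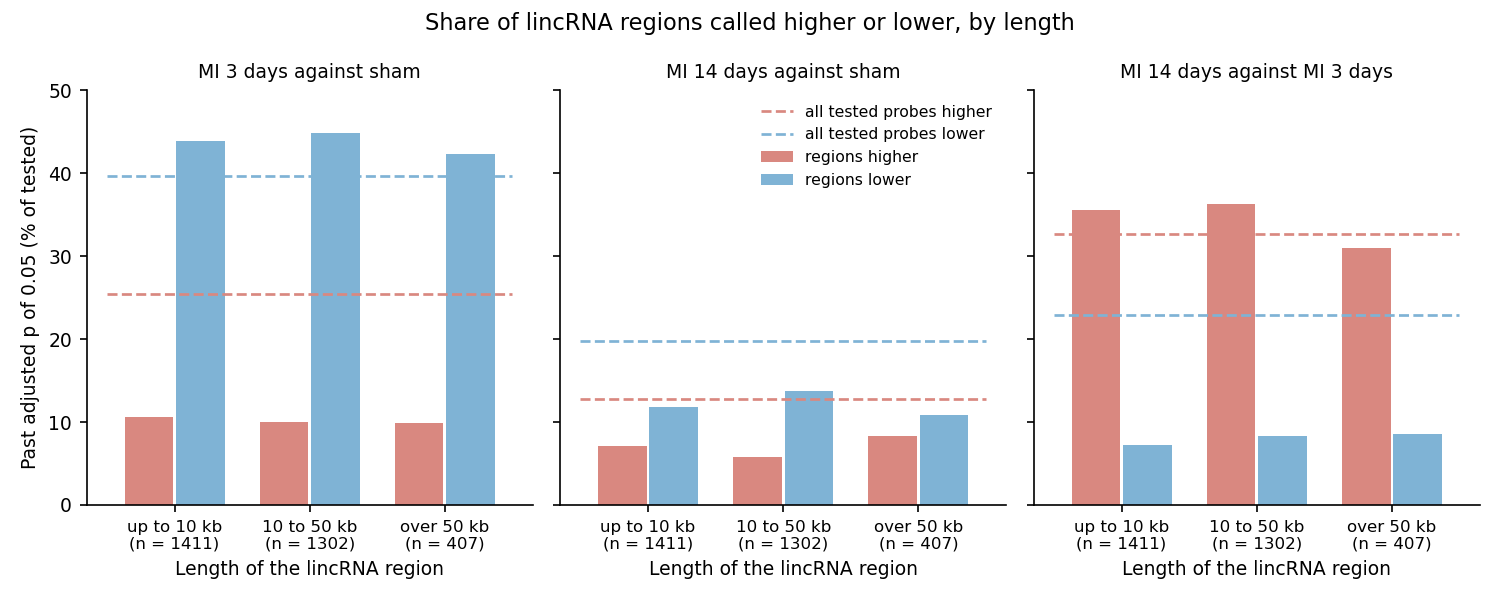
Share of tested lincRNA regions that were higher or lower (bars, % of tested regions past an adjusted p of 0.05) by length class, in each of the 3 comparisons; dashed lines are the shares of all 32261 tested probes. Long regions (407) show 42.3% lower and 9.83% higher at 3 days, close to both shorter classes, and in every class the share higher at 3 days is below that of all tested probes (25.5%).

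Probes of one long region did not always tell the same story. In the 243 regions with several tested probes, all probes rose at 3 days in 9 regions and all fell in 41, none passed the test in 46, and in 24 at least 1 probe rose while another fell. That is 9.88% of such regions, where it was 6.45% for regions of 10 to 50 kb and 3.15% for those up to 10 kb. Changes had one sign over all probes in 62.1% of long regions, 67.2% of those of 10 to 50 kb and 76.3% of the shortest; long regions do not have the same number of tested probes as short ones, and no test of the difference was made. The 2 probes of highest mean level give every class the same number of probes. They had the same sign in 77.8% of the 243 regions, against 75.9% for regions of 10 to 50 kb and 82.3% for the shortest. Where both passed the test (90 long regions) they did so in the same direction in 79 and in opposite directions in 11. Opposite calls made up 4.53% of the 243 regions, 3.63% of those of 10 to 50 kb and 2.19% of the shortest. Across the 243 regions the 2 probes' changes at 3 days correlated with r = 0.55, as a description over probes read on the same arrays. For regions of 10 to 50 kb r was 0.58, and for the shortest 0.7. The difference between the largest and smallest probe change of a region had a median of 0.55 and reached 3.06.

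At 14 days all tested probes rose in 8 regions and fell in 8, and opposite calls were found in 3; from 3 to 14 days the counts were 33, 4 and 18. These counts were smaller on the 10 scanner arrays alone, at 6, 6 and 2 at 14 days and 18, 2 and 4 from 3 to 14 days, with 16 opposite regions at 3 days. A block for the slide on those arrays gave 3, 4 and 1, then 5, 2 and 2, and 14 opposite regions at 3 days.

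The widest split of fitted changes was at chr6:86477309-86537554 (reverse, 60.2 kb). One probe read -2.94, -2.20, -2.68 and -2.36 in sham and -1.47, -0.85, -0.89, -0.68 and -0.90 at 3 days, while the other read -4.01, -3.56, -3.67 and -2.72 in sham and -5.54, -4.43, -4.59, -5.88 and -4.38 at 3 days. The first rose by 1.59 ± 0.18 and the second fell by 1.47 ± 0.39, each without overlap with sham. The second was above background on 4 of 4 sham, 1 of 2 MI 3 days and 3 of 4 MI 14 days scanner arrays. It thus entered the test only through sham, where it was high, and its call is no independent support. At 14 days the first was still 1.48 ± 0.18 above sham and the second read -0.29 ± 0.39. Normexp correction gave the first 1.03 at 3 days and 0.84 at 14 days, and the mean of both probes was 0.06 and 0.60, neither past the threshold. At chr6:67155508-67216941 (forward, 61.4 kb) the 3 probes changed by -0.03 ± 0.13, -0.48 ± 0.17 and 2.49 ± 0.35 at 3 days. The third probe read -5.55, -4.18, -3.47 and -4.32 in sham, -2.42, -1.39, -1.77, -2.05 and -1.85 at 3 days, and -4.47, -4.21, -4.02, -4.97 and -5.00 at 14 days, so it stood apart only at 3 days; it was above background on 1 of 4 sham, 2 of 2 MI 3 days and none of 4 MI 14 days scanner arrays. At chr14:33923944-34003394 (reverse, 79.5 kb) the 6 tested probes changed by -0.96, -0.13, 1.08, 1.99, 1.85 and -0.40, of which the first fell and the 3 positive ones rose; the same 4 passed the test at 14 days with smaller values of the same signs (-0.40, 0.45, 0.78 and 0.74). One probe of chr6:67052066-67119366 (reverse, 67.3 kb) fell by 0.59, and the other, above background on no sham scanner array, rose by at least 1.64-fold (fitted change 1.71). Probes of chr13:64018565-64082570 (forward, 64.0 kb) changed by 0.51, 0.61, 0.10, 0.16 and -1.66, the last above background on 1 of 2 MI 3 days scanner arrays. For the last 4 of these regions the mean over the tested probes has the other sign from the representative probe, at 0.66, 0.57, 0.56 and -0.05.

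**Figure D4:**
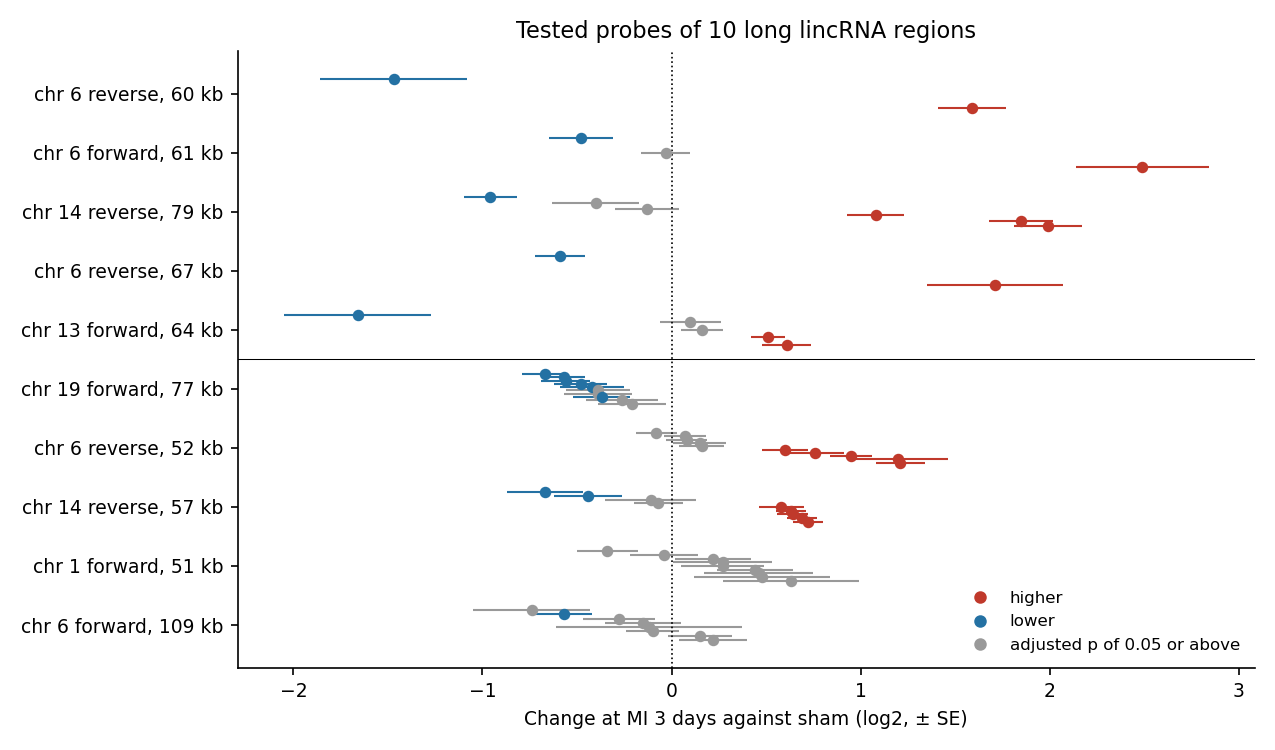
Change at MI 3 days against sham (log2, point ± SE from limma) of every tested probe in 10 long regions; the upper 5 are those with the widest opposite calls and the lower 5 those with the most tested probes. In the upper 5 each region has probes on both sides of 0 past an adjusted p of 0.05, while all 10 probes of the 77 kb region of chromosome 19 lie between -0.67 and -0.21.

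The regions with the most tested probes ranged from uniform to mixed. At chr19:5771425-5848475 (forward, 77.0 kb) all 10 probes had negative changes at 3 days, from -0.21 to -0.67, and 6 of them fell. At chr6:116092274-116144199 (reverse, 51.9 kb) 5 of 10 probes rose, by 0.60 to 1.21, and the other 5 lay between -0.08 and 0.16. The 5 that rose were all lower again at 14 than at 3 days (-0.74 to -1.34). At chr14:77006215-77063293 (reverse, 57.1 kb) 5 of 9 tested probes rose, by 0.58 to 0.72, and 2 fell, by 0.44 and 0.67, the latter above background on 1 of 2 MI 3 days scanner arrays. None of the 9 tested probes of chr1:183783306-183834531 (forward, 51.2 kb) passed the test at 3 days (-0.34 to 0.63), and at chr6:145647711-145756861 (forward, 109 kb) 1 of 8 did, with -0.57, though not as the mean of the 8 (-0.20).

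Both strands were tested in 115 long intervals. At 3 days both strands fell in 25, neither passed the test in 34, and both rose in 0. Of all 407 tested long regions 42.3% fell and only 9.83% rose, and whether the strands of an interval go together was not tested. One strand alone passed in 43 (34 lower, 9 higher), and the strands moved in opposite directions in 13. At chr2:117781720-117937595 the forward strand read -2.58, -2.65, -3.06 and -2.4 in sham and -3.13, -3.32, -3.75, -3.36 and -2.81 at 3 days, overlapping slightly, and fell by 0.60 ± 0.22 (adjusted p = 0.0285), while the reverse strand, as given above, rose by at least 1.59-fold. The forward and reverse changes were -1.07 and 1.93 at chr7:128341797-128414692, -0.64 and 1.79 at chr4:56480568-56658018, -0.91 and 1.11 at chr18:63455560-63548085, and -0.87 and 1.01 at chr2:127988295-128194920. At chr13:64018565-64082570 the order was turned, with 0.51 and -1.02. The probes of its forward strand disagreed, however, and their mean change was -0.05. Among intervals in which both strands fell were chr7:134779841-134840591 (-1.5 and -0.53), chr14:22267795-22319045 (-1.36 and -0.52), chr3:85571525-85645700 (-0.74 and -1.71), chr3:37543523-37613073 (-0.77 and -1.42) and chr2:175640275-175701875 (-0.88 and -1.30). At 14 days both strands rose in 0 intervals and fell in 5, and 1 interval had opposite calls, chr18:63455560-63548085 (-0.45 and 1.83). From 3 to 14 days both strands were higher in 12, both lower in 1 and opposite in 8.

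**Figure D5:**
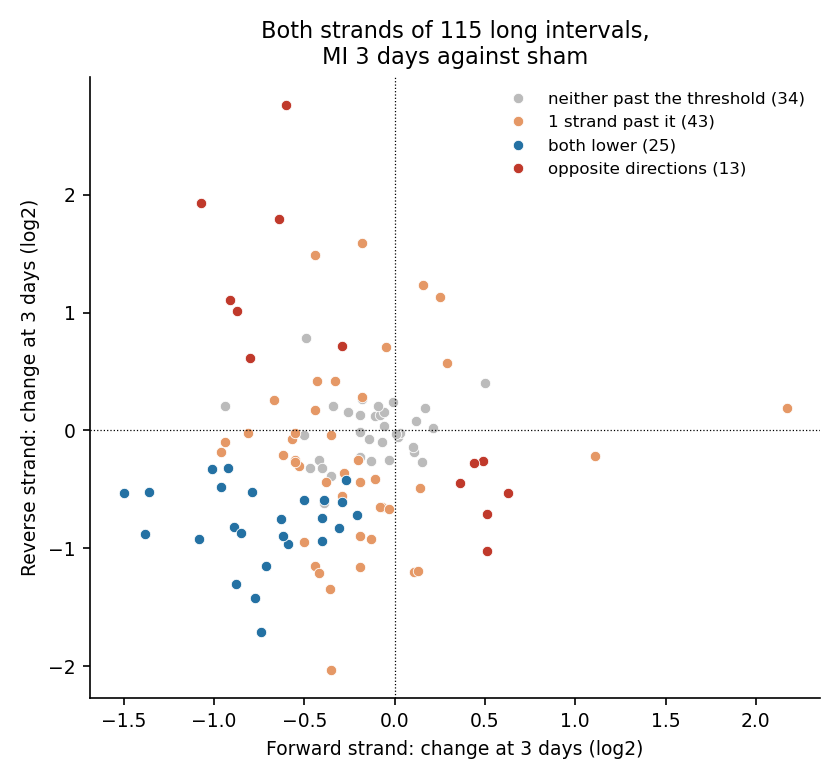
Change at MI 3 days against sham (log2) of the forward strand (horizontal axis) and the reverse strand (vertical axis) for the 115 long intervals with both strands tested; each point is 1 interval. The 25 intervals in which both strands fell fill the lower left, no interval has both strands higher, and the 13 with opposite calls lie in the upper left and lower right. Of all tested long regions 42.3% fell and 9.83% rose.

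Shorter lincRNA regions named within or across the long ones gave a further reading of the same stretch of genome. There were 205 same-strand overlaps of a tested long and a tested shorter region, involving 138 long regions. At 3 days both passed the test in the same direction in 40 pairs and in opposite directions in 9. Of all tested long regions 42.3% fell and 9.83% rose at 3 days. Among regions up to 10 kb 43.9% fell and 10.6% rose, and among those of 10 to 50 kb 44.9% fell and 9.98% rose. Whether the 2 regions of a pair go together beyond these shares was not tested. The long region chr6:134875724-134931975 (forward) rose by 2.09 and the shorter chr6:134879009-134880130 within it by 2.57, and the long region chr3:85571525-85645700 (reverse) fell by 1.71 and chr3:85589154-85621215 within it by 1.61. In contrast, chr1:93744621-93825321 (forward) fell by 0.92 while chr1:93812836-93816128 within it rose by 2.65. At 14 days 14 pairs passed the test in the same direction and 2 in opposite directions, and from 3 to 14 days 31 and 10.

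Of the 10 longest regions 3 had no tested probe. The longest one tested, chr3:34003359-34537330 (forward, 534 kb), changed by -0.01 at 3 days on its representative probe, and its other tested probes by -0.19 and -0.52 ± 0.21, the last past the threshold. At chr13:28477490-28985604 (508 kb), the forward strand read -2.96, -2.02, -2.36 and -2.58 in sham and -3.31, -2.82, -4.1, -3.32 and -2.84 at 3 days, and the reverse strand 2.53, 2.45, 2.72 and 3.01 in sham and 3.01, 3.15, 3.6, 3.35 and 3.33 at 3 days. Forward arrays overlapped between the groups and reverse arrays touched at 1 value, with changes of -0.80 ± 0.29 (adjusted p = 0.028) and 0.61 ± 0.13 (adjusted p = 0.00109). The forward call was lost without sham replicate 2 (-0.64), sham replicate 3 (-0.76) or MI 3 days replicate 3 (-0.59), and with quantile scaling (-0.63), normexp (-0.14), scanner arrays only (-0.60), slide as a block (-0.44) or no filter (-0.80). The only probe of chr12:20620869-21028045 (forward, 407 kb) rose by 0.79 ± 0.19 at 3 days (adjusted p = 0.00212) and 0.64 ± 0.19 at 14 days (adjusted p = 0.0191), the former 0.37 after normexp correction. The 399 kb interval chr2:176784125-177183100, part of the run on chromosome 2, fell on both strands at 3 days, by 0.89 and 0.82.

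In all 5 regions were picked for the highest mean signal of their probe, which says nothing of their abundance relative to other regions. Of these, chr2:168804720-168854970 (reverse, 50.2 kb) fell from 8.85, 8.94, 9.04 and 9.2 in sham to 7.61, 7.61, 7.55, 7.76 and 7.75 at 3 days, and read 8.44, 8.61, 8.18, 8.64 and 8.93 at 14 days. The 3-day arrays were far below the others (-1.35 ± 0.13, adjusted p = 6.38e-07), and the 14-day arrays reached into the sham range (-0.45 ± 0.13, adjusted p = 0.0164). The other 4 did not pass the test at 3 days, with changes of 0.12 at chr6:116092274-116144199 (forward; 0.39 and past the threshold with quantile scaling), -0.09 at chr4:94742359-94822969 (forward), -0.01 at chrX:18744367-18853992 (forward) and -0.07 at chr15:85412264-85549139 (forward; -0.36 and past it as the mean of tested probes).

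Genes of the chromatin complexes that bind some lincRNAs were measured on the same arrays. Of 16 such genes, all tested, 7 rose and 4 fell at 3 days, with a median of 0.22, where 25.5% of all tested probes rose and 39.7% fell. At 14 days 1 rose and 2 fell, where 12.8% and 19.8% of all tested probes did. Ezh2, a catalytic subunit of Polycomb repressive complex 2 known from dividing cells, rose by 1.56 ± 0.11 at 3 days (adjusted p = 6.25e-08), and its paralogue Ezh1 fell by 0.85 ± 0.08 (adjusted p = 6.57e-07). Phf19, an accessory subunit, rose by 1.38 and Phf1, another accessory subunit, fell by 0.77. Jarid2, a further cofactor, fell by 0.59. Rest, a repressor of neuronal genes, rose by 0.65 at 3 days and 0.27 at 14 days, and Hdac1, a histone deacetylase, rose by 0.87 at 3 days. Eed and Rbbp7, core subunits or partners of the complex, were lower at 14 days by 0.39 and 0.37. Between the 2 times 3 were higher and 9 lower at 14 days, Ezh2 by -1.52 and Ezh1 by 0.76.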

How the data were processed

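The members and the gene lists were chosen with earlier results of these data known. The authors deposited 1 linear Cy3 intensity per probe and array, and scanner intensities of 10 arrays were made with Agilent Feature Extraction 10.7.3.1, per the file headers. The submitters' processing notes list limma with no role. For single-spot probes all table values equalled the scanner values (100.0%, tolerance 1e-05), and 0 values of long-region probes were saturated. Coordinates are those of the array files, on mm9, and are printed as given; no gene annotation was laid over them. Of the region probes, 13 named without a strand were left out.

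From the deposited intensity the log2 level minus each array's 75th percentile was computed (Python 3.11.15, pandas 2.3.3) and fitted over 32261 probes and all 14 arrays with limma 3.58.1 in R 4.3.3 (lmFit, eBayes, two-sided), with no minimum fold and Benjamini-Hochberg adjustment. The script was tested on simulated data. Regions were named by rule. The rules took the largest changes with no overlap of arrays, the longest, the highest signal and the widest opposite probes. They also took the most tested probes and the intervals of highest mean level with both strands tested. The window of chromosome 2, the strand pairs given for their opposite or both lower calls, and the other examples were picked after their values were seen. Array number, 4 or 5 per group, limits the precision. Alternatives were quantile normalization, a percentile of tested probes, normexp with quantile scaling on the scanner arrays, scanner arrays only, and slide and replicate blocks. Further ones were no filter, brighter probes, the mean of a region's probes, regions over 100 kb, and leaving out each array.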

Additional observations from a re-analysis of the deposited data

Results flagged for a closer look

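For 192 groups of 4 or 5 arrays of the 67 named regions, the highest or lowest array was compared with the rest by Dixon's gap ratio, and 13 stood apart, where chance alone gives about 1 in 20. At MI 3 days, replicate 1 was low at chr4:56480568-56658018 reverse (-0.23, others 0.24 to 0.36), chr6:34548561-34612216 forward (0.25, others 0.53 to 0.57), chr6:86477309-86537554 reverse (-1.47, others -0.9 to -0.68) and chr13:64018565-64082570 forward (2.08, others 2.19 to 2.23). Replicate 2 was high at chr3:86827945-86886695 reverse (-1.6, others -2.61 to -2.47) and chr19:55715078-55776694 reverse (-1.3, others -2.03 to -1.85). Replicate 3 was high at chr7:128341797-128414692 reverse (3.64, others 3.2 to 3.26) and low at chr3:85571525-85645700 reverse (-5.0, others -3.33 to -2.8).

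At MI 14 days, replicate 4 was high at chr2:117781720-117937595 reverse (-4.91, others -6.28 to -5.92), and replicate 3 was low at chr6:31170350-31287353 forward (3.49, others 3.96 to 4.04) and high at chr3:37543523-37613073 reverse (0.31, others -0.36 to -0.28). In sham, replicate 4 was high at chr4:8983276-9173208 forward (-2.75, others -3.48 to -3.39) and replicate 3 at chr14:22267795-22319045 reverse (-0.96, others -1.21 to -1.19).

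The region chr11:53596919-53672731 reverse differed between the times after MI, with -1.05 at 3 days, 0.42 at 14 days and a tested difference between them of 1.47.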

How the results depend on the processing

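Over the settings tried, 72 counts stayed within 1.5 times of the reported one and 27 did not; leaving out single arrays gave 82 and 2. Regions over 100 kb alone gave 11 higher and 53 lower at 3 days, 10 and 15 at 14 days, and 37 and 10 between the times. Normexp correction was run with quantile scaling on the scanner arrays, on the median spot signal by a choice made after seeing the data. It gave 98 lower at 3 days, 28 lower at 14 days and 50 higher between the times. At 14 days 25 were lower with the percentile of tested probes and 28 without the filter on dim probes. On the scanner arrays alone 22 were lower at 14 than at 3 days, and between the times all probes were lower in 2 regions, higher in 18 and opposite in 4 (probe agreement on these arrays was added after seeing the data). A slide block on these arrays, which changes both arrays and model, gave 15 lower at 14 days, 63 higher and 13 lower between the times, and opposite probes in 14, 1 and 2 regions in the 3 comparisons in order; all probes were lower in 4 and higher in 3 at 14 days, and lower in 2 and higher in 5 between the times. With only brighter probes opposite probes were found in 12 regions at 3 days and 10 between the times. Leaving out 1 array gave 38 to 44 higher and 145 to 175 lower at 3 days, 27 to 35 and 29 to 55 at 14 days, and 104 to 134 and 29 to 36 between the times. Under the mean of a region's probes 5 changes at 3 days reversed: chr6:67155508-67216941 forward (0.66), chr14:33923944-34003394 reverse (0.57), chr6:67052066-67119366 reverse (0.56), chr13:64018565-64082570 forward (-0.05) and chr14:77006215-77063293 forward (0.45). Of the other values of named regions 1921 kept direction and side of the threshold, 38 lost the call and 20 gained one. Of 66 named changes of at least 0.5, 36 shrank by over 1.5 times under normexp; the cause was not tested. Within slides the median difference over the tested long regions, 1 to 3 arrays a group, was -0.34 and -0.39 at 3 days, -0.07 and -0.14 at 14 days, and 0.27 between the times. The replicate numbers are not stated to pair the arrays. Correlations of same-numbered arrays ran from -0.14 to 0.22, which cannot decide it, as arrays of unlike number were not compared. With the replicate block 43 and 181 regions were higher and lower at 3 days, 31 and 53 at 14 days, and 132 and 33 between the times. Regions with no tested probe, 141 of 548, and dim probes limit what can be seen.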
